A study of Mus musculus with 20 samples.

Results

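Conventional dendritic cells type 1 (cDC1) were examined in mouse interscapular brown adipose tissue (iBAT) by single-cell RNA-seq. They were chosen by their own UMI counts (a UMI, or unique molecular identifier, counts 1 captured mRNA molecule). A cell of the lineage-positive (Lin+) libraries was taken where Xcr1, Clec9a, Tlr3 and Snx22 summed to at least 2 UMIs, Xcr1 and Clec9a to at least 1, and H2-Ab1 had at least 3. Cells with C1qa and C1qb at 2 or more (macrophages), with Ccr7, Fscn1, Ccl22 and Il4i1 at 4 or more (mature dendritic cells), or with Cd79a and Cd3e at 1 or more (B and T cells) were set aside. All cells had under 10% mitochondrial UMIs, under 15000 UMIs and 500 to 4000 genes. In total 1853 cells met the rule, or 3.69% of the 50165 cells kept in the 10 Lin+ libraries. The 20 libraries of the series held 109765 kept cells. The levels of these marker genes chose the cells and are described here without a test.

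cDC1 are the dendritic cells that take up material from dying cells and present it on MHC class I to CD8 T cells, a process called cross-presentation. They develop under the transcription factors Irf8 and Batf3, bear the chemokine receptor Xcr1 and the dead-cell receptor Clec9a, sense double-stranded RNA through Tlr3, and are a source of interleukin 12. In adipose tissue they are a small resident part of the immune cells, beside macrophages, monocytes and other dendritic cells.

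Stromal vascular cells of iBAT were separated on magnetic beads with antibodies to CD5, CD11b, B220, Gr-1, 7-4 and Ter-119 into Lin+ and Lin- fractions, and each experiment gave 1 library of each, from tissue pooled over 3 to 4 mice aged 8 to 14 weeks. Male C57BL/6J (C57) mice gave 2 pools in each of 3 groups: room temperature (RT, labelled 24 °C), a 4-day stay at 6 °C (COLD), and a 4-day infusion of CL316,243 (CL), an agonist of the β3 adrenergic receptor, at 0.75 nmol per hour. Female mice of a further line were all Adrb1 fl/fl and given tamoxifen, carried Pdgfra-CreER +/- (KO) or -/- (WT), and were kept at RT or at 6 °C for 4 days, with 1 pool per group. The p-values below measure the spread between these pools, except in the KO against WT test, which has 1 pool for each genotype and temperature. The Cre, named Pdgfra-CreERT2 in the paper, is driven by Pdgfra, a gene of stromal cells, and was not aimed at dendritic cells. Adrb1, the β1 adrenergic receptor, gave 1 UMI in all 1853 cDC1. Among Lin- cells with at least 1 UMI of Pdgfra, it was found in 12 of 1797 cells (0.668%, 95% exact binomial interval 0.345 to 1.16) in WT RT and 34 of 1714 (1.98%, 1.38 to 2.76) in WT COLD. It was found in 0 of 512 in KO RT and 0 of 601 in KO COLD, with upper limits of 0.718% and 0.612%. Each value is from 1 library, and the intervals cover the counting of cells in it and no spread between pools. Over all Lin- cells it measured 4.16 (WT RT), 7.03 (WT COLD), 7.64 (KO RT) and 4.27 (KO COLD) CPM (counts per 1000000 UMIs of the cells summed). In the Adrb1 line, RT libraries were made with the version 3 kit and all other libraries with version 2, so kit and temperature cannot be told apart within it.

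The libraries held 2196 to 8193 kept Lin+ cells, with medians of 2011 to 4737 UMIs per cell. The cDC1 were deeper, with medians of 5631 to 10951 UMIs per library. Xcr1 was detected in 91.3% of them, Clec9a in 82.4%, Tlr3 in 60.0% and Snx22 in 45.9%. In the 7686 B cells kept for comparison, which should lack these genes, the shares were 0.117%, 0.195%, 0.260% and 0.143%, at medians of 999 to 2690 UMIs. Naaa, a lysosomal hydrolase that is a known marker but not part of the rule, was found in 99.5% of the cDC1 and in 6.23% of B cells. Irf8 was found in 99.5% of the cDC1, Wdfy4, which cross-presentation needs, in 91.2%, and Batf3 in 84.9%. In B cells these 3 were found in 44.1%, 18.3% and 1.52%. In the Cd209a dendritic cells described below, Naaa was found in 58.7%, Irf8 in 20.6%, Wdfy4 in 25.7% and Batf3 in 35.7%. Cd8a and Cd207, which mark cDC1 of some other organs, were found in 3.35% and 1.03% of the cDC1. The levels of Xcr1, Clec9a, Tlr3 and Snx22 were fixed by the rule, while Naaa, Irf8, Wdfy4 and Batf3 played no part in it.

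Cells just inside the marker threshold resembled the rest, while those just outside were mixed. The 640 cDC1 with a marker sum of 2 to under 4 had 2262 CPM of Irf8, 5.13 CPM of Cd209a and 440 CPM of the myeloid gene Lyz2. The 1055 cells that met the other limits with a sum above 0 and below 2 had 1604, 212 and 2012 CPM. Upper limits left out 143 further cells in the Lin+ libraries that met the marker rule, 127 of them cycling.

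Some libraries stood apart in genes of other cells. In the library labelled KO RT, the 12 non-cycling cDC1 held 574 CPM of Siglech, a marker of plasmacytoid dendritic cells, which lay at or below 5.97 CPM in all other libraries, and 7 plasmacytoid markers (8 without Bst2) summed to 2191 CPM there and to at most 59.3 CPM elsewhere. In C57 COLD 2, 5 red cell genes summed to 2980 CPM, against 3.99 CPM in COLD 1 and 760 CPM in WT COLD, and 6 neutrophil genes to 156 CPM, against 11.6 CPM. In C57 CL 1, 8 adipocyte genes summed to 389 CPM, and were at or below 64.7 CPM elsewhere. In C57 CL 2, the neutrophil genes summed to 103 CPM and 8 stromal genes to 349 CPM, against 18.5 and 154 CPM in CL 1, and the collagen gene Col3a1 was at 61.4 CPM against at most 3.09 CPM elsewhere. No barcode of a cDC1 was shared between Lin+ libraries. In 19 cDC1 the barcode also occurred in the Lin- library of the same experiment, 13 of them in COLD 1.

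The cDC1 made up a larger share of the Lin+ cells after cold than at RT. At RT they were 2.24% (95% exact binomial interval 1.80 to 2.74) and 1.61% (1.26 to 2.02) of the kept Lin+ cells in the C57 pools, and after cold 7.32% (6.75 to 7.93) and 8.02% (7.35 to 8.73). Under CL they were 2.00% (1.65 to 2.40) and 1.61% (1.28 to 1.99). Intervals cover counting error only. Both cold pools were above all other C57 pools, while the CL and RT pools overlapped.

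The C57 means were 7.67% ± 0.492 (SD, n = 2) in cold and 1.92% ± 0.442 (n = 2) at RT, a 3.99-fold difference. With 2 pools against 2, the exact permutation p of 0.333 was the smallest possible. Over the 4 cold and 4 RT experiments of all lines, the share was 5.41% ± 2.73 and 1.24% ± 0.825, with no overlap, and the two-sided exact permutation p was 0.0286, again the smallest possible. That test exchanged libraries across the lines, and with libraries exchanged only within the C57 and Adrb1 lines, an alternative added after the values were seen, the exact permutation p was 0.0556, the smallest possible there. In the Adrb1 line it was 0.537% at RT and 4.05% in cold in WT, and 0.592% and 2.25% in the libraries labelled KO. Under CL the C57 mean was 1.81% ± 0.279 (n = 2), and the difference from RT of -0.118 percentage points was smaller than the spread of the pools (exact permutation p = 0.667); it was 0.0795 without CL replicate 2 and 0.195 without RT replicate 1.

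Median UMIs of all kept Lin+ cells were 2011 and 2255 in the C57 RT pools and 4737 and 4655 in cold, and a deeper cell passes a UMI threshold more easily. Cells were therefore also thinned to 1500 UMIs before the rule, and those with fewer were left out. That left out 1209 of 4072 and 1085 of 4472 cells in the C57 RT pools, and 813 of 7676 and 1049 of 6136 in cold. Among the remaining cells the C57 shares were 1.05% and 0.561% at RT and 2.70% and 2.95% in cold. The cold pools stayed above the RT pools, at 3.51-fold against 3.99-fold unthinned. Over the 4 experiments the difference of 1.23 percentage points had an exact permutation p of 0.143, and was 3.19-fold against 4.35-fold unthinned. A share also depends on all other cells of the fraction, so more cDC1 and fewer other Lin+ cells cannot be told apart.

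**Figure D1:**
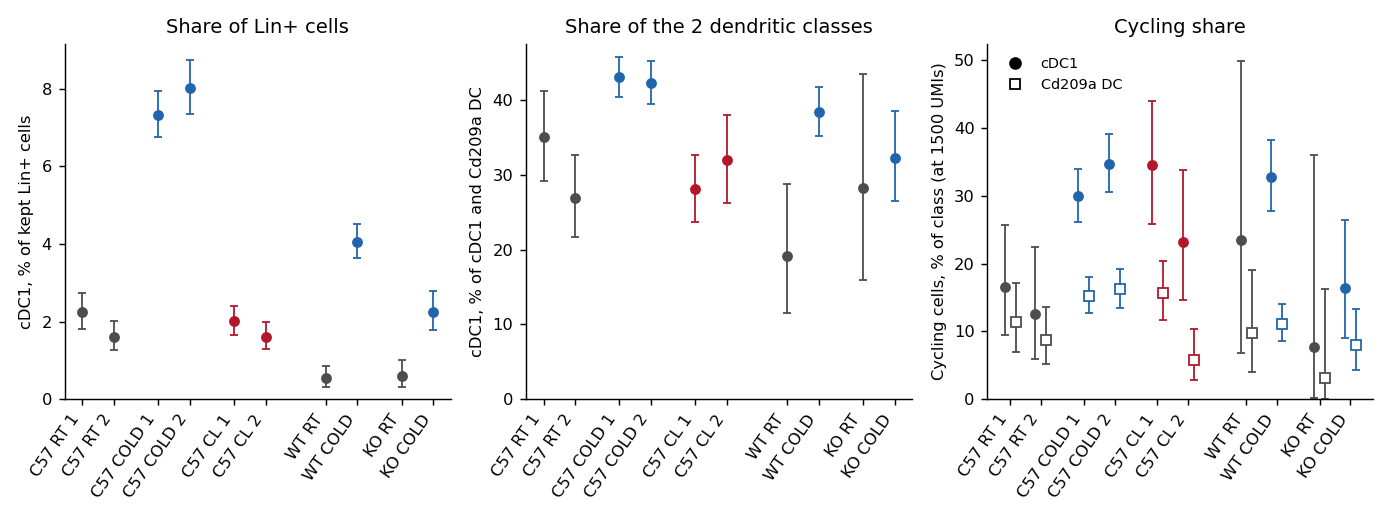
cDC1 in the 10 Lin+ libraries, with RT in grey, COLD in blue, CL in red, filled circles for cDC1, open squares for Cd209a dendritic cells and bars for 95% exact binomial intervals. The panels show cDC1 in percent of kept Lin+ cells, cDC1 in percent of both dendritic classes, and the percent of cycling cells in each class at 1500 UMIs per cell, and the cDC1 share was highest in the C57 cold pools, at 7.32% and 8.02%.

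Another class of 3050 dendritic cells was set beside cDC1, and how near it is to them was not tested. These cells had at least 2 UMIs over Cd209a, Clec4b1, Tnip3 and Clec10a, of which at least 1 from Cd209a or Clec4b1. They had no UMI sum of 1 or more over Xcr1 and Clec9a and met the same other limits. They are called Cd209a dendritic cells below. They too took a larger share in cold, with 4.15% and 4.38% of Lin+ cells in the C57 RT pools, 9.69% and 11.0% in cold, and 5.14% and 3.43% under CL. Among both classes, cDC1 were 35.0% and 26.9% at RT, 43.0% and 42.3% in cold, and 28.0% and 31.9% under CL. The C57 cold mean of 42.7% ± 0.537 was 11.7 percentage points above RT (30.9% ± 5.75, n = 2 each; exact permutation p = 0.333, the smallest possible), and the difference was 7.65 points without RT replicate 2 and 15.8 without RT replicate 1. Over the 4 experiments the difference was 11.7 points and missed the threshold (exact permutation p = 0.0571). With cells thinned to 1500 UMIs the difference was 9.07 points in the C57 pools, or 1.60-fold, and 1.67 points over the 4 experiments (exact permutation p = 0.743). Under CL the difference from RT was -0.960 points (exact permutation p = 1), and it was 0.975 without CL replicate 1 and 3.11 without RT replicate 1.

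Many cDC1 were in the cell cycle. A cell was called cycling with at least 3 UMIs over 26 proliferation genes such as Mki67 and Top2a, and 747 of the 1853 cDC1 were. For comparison across depths, cells were thinned to 1500 UMIs, which left out 1 cDC1, 21 Cd209a dendritic cells and 2878 B cells. The classes had been chosen at full depth, so thinning does not remove an effect of depth on that choice. In the C57 pools the cycling share of cDC1 after thinning was 16.5% and 12.5% at RT, 30.0% and 34.8% in cold, and 34.5% and 23.2% under CL. Cold and CL pools were all above both RT pools. Unthinned, 25.3% and 19.4% of cDC1 cycled at RT, 39.7% and 45.3% in cold, and 41.6% and 31.7% under CL.

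The C57 cold mean of 32.4% ± 3.40 was 17.9 percentage points above that at RT (14.5% ± 2.81), and the CL mean of 28.8% ± 8.02 was 14.4 points above it (n = 2 each; exact permutation p = 0.333 for each, the smallest possible). The CL difference was 8.68 points without CL replicate 1 and 20.02 without CL replicate 2. In the Adrb1 line, shares of 23.5% (17 cells) at RT and 32.8% (332 cells) in cold in WT stood beside 7.69% (13 cells) and 16.5% (79 cells) in the libraries labelled KO. Over 4 cold and 4 RT experiments the difference was 13.5 points and missed the threshold (exact permutation p = 0.0857). The upper limits on UMIs and genes left out 8 cDC1 in WT RT (8 cycling, unthinned), 42 in WT COLD (40), 8 in KO RT (6) and 43 in KO COLD (33). In the C57 pools they left out 0 to 22. With no upper limits the 4-experiment means were 34.1% in cold and 20.65% at RT (exact permutation p = 0.114). With the limits they were 28.5% and 15.05%.

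The cycling share was higher in cDC1 than in Cd209a dendritic cells of the same library in 10 of 10 libraries, by 12.7 percentage points on average (SD 6.69, range 3.74 to 21.7; two-sided exact sign-flip permutation p = 0.00195, the smallest possible). Without thinning it was higher in 9 of 10. In C57 pools the share of Cd209a dendritic cells was 11.4% and 8.76% at RT, 15.2% and 16.2% in cold, and 15.7% and 5.75% under CL. B cells of the C57 pools, where free RNA can give UMIs of these genes, were at 0.716% to 7.52%. This comparison was added after the values were seen.

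The level of a gene was compared between conditions in summed counts of the non-cycling cDC1, 56 to 339 cells and 323812 to 2505375 UMIs per C57 pool. edgeR's quasi-likelihood test found 344 of 5398 tested genes changed between cold and RT at an adjusted p (Benjamini-Hochberg) under 0.05, or 6.37%. Of these 158 (2.93%) were higher and 186 (3.45%) lower in cold, and 1247 genes passed an unadjusted p of 0.05. The count rested on every RT and COLD pool. Leaving out RT replicate 1 brought it to 14 and RT replicate 2 to 93, leaving out COLD replicate 1 to 119 and COLD replicate 2 to 94, and leaving out CL replicate 1 or 2 raised it to 536 or 535.

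Interferon response genes led the rises. These genes are switched on by type I and type II interferons through factors that include Stat2 and Irf9 and limit the spread of viruses. Of a list of 30, 26 could be tested, and 21 rose and none fell, where 2.93% and 3.45% of all genes did. The median log2 fold change was 2.43, against 0.02 over all genes tested. Some members, such as Ifit3 (at most 2.23 CPM at RT and 3.09 CPM under CL), passed the filter on low counts through the cold pools alone. Such genes could only be called higher in cold, here and against CL, which favours a rise in the count and the median. The list and its members were chosen with earlier results known, so its count describes the response. The list had 4 calls with RT replicate 1 left out, 11 with RT replicate 2 left out, and 19 and 16 with COLD replicate 1 or 2 left out, while the median ranged from 2.23 to 2.58 over these fits.

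Promoters of these genes carry sequences that interferon-activated factors bind, and the letters of such an element (GAAA, any 2 bases, GAAA) were searched on both strands in RefSeq promoters (build GRCm38.p6, 250 bases before to 50 after the start site), allowing overlaps. Of the 21 risen genes 15 had a promoter in the table, and 7 of the 15 (46.7%) held a match, against 3.99% of all 27025 genes and 4.38% of the tested genes. A match describes the letters and not a bound site. The stretches below are from 4 of the 7 genes with a match and run 5′ to 3′ on the gene's strand, with matches on either strand in capitals. Ifi44, with the third largest change of the 15, had no match, and Oas3, Bst2 and Phf11b had matches that are not shown. They are at chr19:34583343-34583446 (+) for Ifit3, chr19:34640755-34640843 (+) for Ifit1, chr12:26456533-26456602 (-) for Rsad2 and chr4:156200845-156200926 (-) for Isg15.
Ifit3: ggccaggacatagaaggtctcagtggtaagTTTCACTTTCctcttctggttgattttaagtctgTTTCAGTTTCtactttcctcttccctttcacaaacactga
Ifit1: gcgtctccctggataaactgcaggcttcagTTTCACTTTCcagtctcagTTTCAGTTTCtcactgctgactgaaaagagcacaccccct
Rsad2: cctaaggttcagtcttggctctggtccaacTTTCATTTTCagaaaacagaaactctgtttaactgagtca
Isg15: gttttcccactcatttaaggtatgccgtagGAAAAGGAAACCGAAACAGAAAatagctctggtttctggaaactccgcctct
Ifit3 and Ifit1 hold 2 matches each, Rsad2 holds 1, and Isg15 holds 3 that overlap.

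Isg15, a ubiquitin-like protein attached to other proteins, measured 62.3 and 37.9 CPM in the RT pools, 556 and 604 CPM in cold, and 92.7 and 49.5 CPM under CL. Its log2 fold change in cold was 3.25 (SE 0.29, edgeR adjusted p = 0.00044). Irf7, the factor that amplifies type I interferon production, had 81.2 and 69.2 CPM at RT, 568 and 743 CPM in cold and 108 and 59.4 CPM under CL. The log2 fold change of Irf7 was 2.86 (SE 0.27, adjusted p = 0.00052). For both genes the cold pools were far above all others, and the RT and CL pools overlapped. Usp18, which removes Isg15 from proteins and damps interferon signalling, rose from 18.9 and 17.9 CPM to 161 and 228 CPM, with 30.9 and 21.8 CPM under CL (log2 fold change 3.13, SE 0.30, adjusted p = 0.00059).

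The antiviral genes Ifit3 and Rsad2 were nearly absent at RT. Ifit3, which binds viral RNA as part of the Ifit complex, had 1 UMI over both RT pools and 339 in cold, a ratio per UMI of 74.0 with a counting interval of 13.2 to 2931 (edgeR adjusted p = 0.0014). Rsad2 (viperin), which blocks viral RNA synthesis, had 2 and 362 UMIs, a ratio of 39.5 (10.9 to 327; adjusted p = 0.00087). Ifi44 had 3 and 247 UMIs, a ratio of 18.0 (6.08 to 87.7; adjusted p = 0.0081). The intervals cover counting error only.

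Ifi27l2a, a mitochondrial interferon-induced protein, went from 83.1 and 93.8 CPM at RT to 800 and 1249 CPM in cold, with 145 and 327 CPM under CL (log2 fold change 3.28, SE 0.42, adjusted p = 0.0025). Bst2, which tethers virus particles, had a log2 fold change of 1.79. Irf9 (0.73, adjusted p = 0.0682) and Stat2 (0.39, adjusted p = 0.374) did not pass. Isg15, Irf7, Rsad2 and Usp18 passed under all 15 alternatives. Without RT replicate 1, Ifit3, Ifi27l2a, Ifi44 and Bst2 did not pass, nor did Ifi44 without RT replicate 2.

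**Figure D2:**
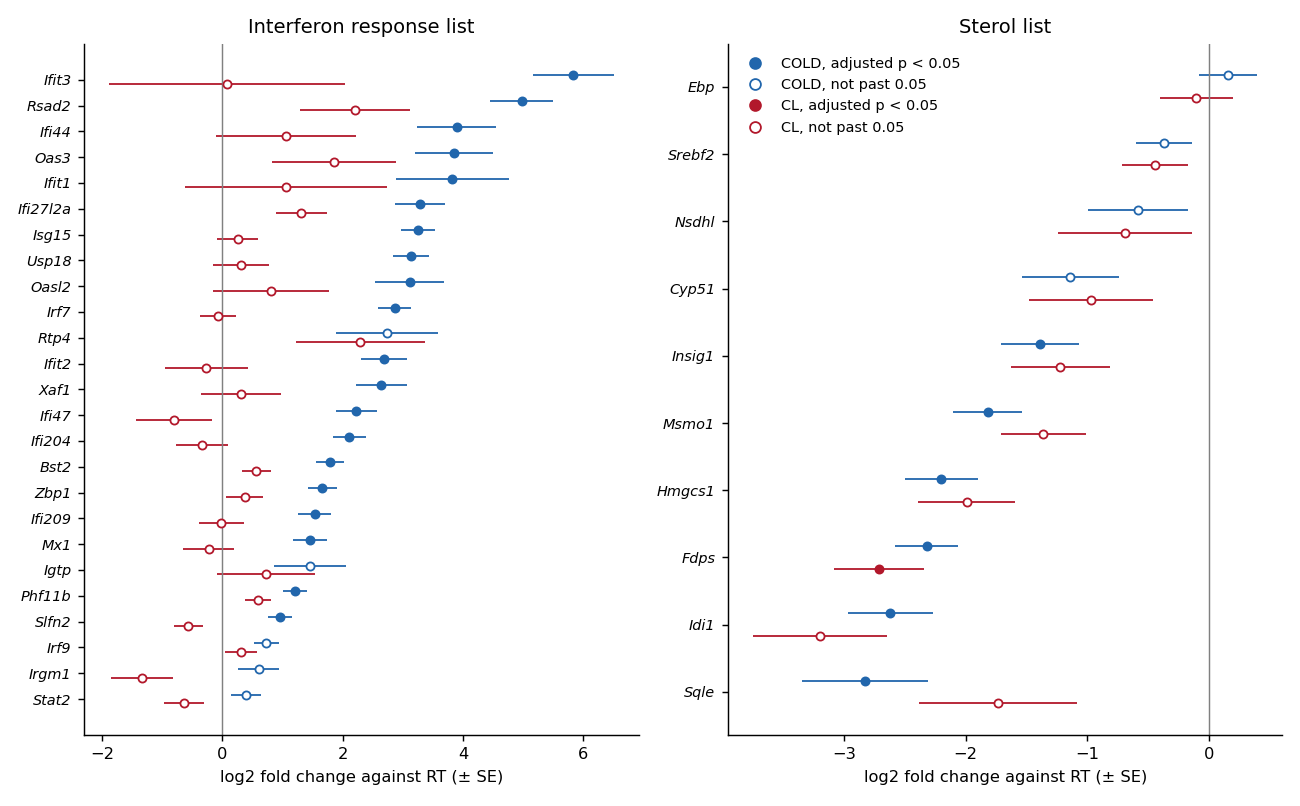
Log2 fold changes against RT (points) with their SE (bars) in non-cycling cDC1 of the C57 pools for the reported tested genes of the interferon and sterol lists, in cold (blue) and under CL (red), filled where the adjusted p was under 0.05. In cold 20 of the 25 interferon genes shown were filled and higher and 6 of the 10 sterol genes shown filled and lower, whereas under CL 0 interferon genes and 1 sterol gene were filled.

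Summed over the 30 genes, the interferon list was 1046 and 1018 CPM at RT, 4643 and 5870 CPM in cold and 1550 and 1300 CPM under CL. The cold sum was 5.09 times that at RT, and the CL sum 1.38 times. In the Adrb1 line the sum was 1107 and 3361 CPM at RT and in cold in WT, and 2003 and 4917 CPM in the libraries labelled KO, over 10 to 174 non-cycling cells. Bst2, also on the plasmacytoid list, made up a large part of the sum in the library labelled KO RT, where plasmacytoid markers were high. Without Bst2 the sums were 1038 CPM at RT against 2988 CPM in cold in WT, and 1147 CPM against 4288 CPM in the libraries labelled KO, which is 3.74 times there against 2.46 times with it. The part of plasmacytoid cells was not tested. All 21 genes were higher in cold in WT and 18 of the 21 in KO. Over all 5398 genes these shares were 48.5% and 46.5%. In cycling cDC1 the C57 sum was 3.32 times higher in cold, and in Cd209a dendritic cells 3.22 times.

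Other genes beside the list rose in cold. Plac8, a cysteine-rich protein of myeloid and plasmacytoid cells, had 92.6 and 132 CPM at RT, 1825 and 2206 CPM in cold and 825 and 400 CPM under CL (cold log2 fold change 3.92, SE 0.33, adjusted p = 0.00044). The 3 groups did not overlap. Ly6a (Sca-1), itself inducible by interferon, had 30.2 and 11.2 CPM at RT against 424 and 476 CPM in cold, with 74.1 and 21.8 CPM under CL (log2 fold change 4.13, SE 0.41, adjusted p = 0.00068). Apoe, a lipid carrier of macrophages, had 7.56 and 0 CPM at RT against 49.5 and 53.2 CPM in cold (log2 fold change 3.36, SE 0.80, adjusted p = 0.0352), and did not pass without either RT replicate, without COLD replicate 2, with cycling cells included or in a fit of all 3 lines (0.61).

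Lists of markers of other cells held some of these genes. The 8 monocyte markers, of which Plac8 is 1, summed to 1069 and 1018 CPM at RT against 2757 and 3163 CPM in cold, and without Plac8 to 977 and 886 CPM against 932 and 956 CPM. Among them Vcan was at or below 2.79 CPM in those pools, and Ly6c2 went from 18.9 and 33.5 CPM to 57.9 and 56.8 CPM. The 8 plasmacytoid markers, of which Bst2 is 1, summed to 176 and 170 CPM at RT against 500 and 630 CPM in cold, and without Bst2 to 45.3 and 53.6 CPM against 56.7 and 52.7 CPM. Siglech was at 0 to 5.19 CPM, and Tcf4 went from 28.3 and 40.2 CPM to 46.7 and 45.1 CPM. The 10 macrophage markers summed to 1173 and 1859 CPM at RT against 746 and 549 CPM in cold, a fall that lay in Lyz2 (log2 fold change -1.97, adjusted p = 0.0225). The other 9, Apoe among them, summed to 142 and 163 CPM at RT against 239 and 230 CPM in cold. Of T and NK cell markers both tested members were called lower, Trbc2 (-2.23, adjusted p = 0.041) and Nkg7 (-2.40, adjusted p = 0.0409), and the 8 genes summed to 98.2 and 134 CPM at RT against 55.9 and 20.3 CPM in cold. Ighm of the 6 B cell markers (1.16, adjusted p = 0.0117) and Gsn of the 8 stromal markers (1.21, adjusted p = 0.0486) were called higher. In these lists 1 and 2 members were tested. Over all tested genes 2.93% were called higher and 3.45% lower. The B cell sums were 75.6 and 114 CPM against 241 and 227 CPM, and the stromal sums 85.0 and 114 CPM against 212 and 278 CPM. None of the neutrophil, red cell or adipocyte markers was called, with 2, 0 and 1 tested. The part of these cells in the results was not tested.

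Sterol genes fell in cold. Cells make cholesterol through the mevalonate pathway, which is switched on by Srebf2 when sterols are scarce. Of 20 listed genes 12 could be tested, and 8 fell and none rose (3.45% and 2.93% of all genes did), with a median log2 fold change of -1.60 against 0.02 over all genes. The 8 calls became 2 without RT replicate 1 and 5 without RT replicate 2, COLD replicate 1 or COLD replicate 2, and the median stayed between -1.69 and -1.04 over these fits.

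Fdps, which makes farnesyl diphosphate, had 157 and 98.2 CPM at RT, 34.7 and 26.4 CPM in cold and 27.8 and 17.8 CPM under CL (cold log2 fold change -2.32, SE 0.26, adjusted p = 0.0014). Idi1, Hmgcs1, Sqle, Msmo1 and Insig1, enzymes and a regulator of the same pathway, fell by 1.39 to 2.83 on the log2 scale. RT pools lay above cold and CL pools for Fdps. Without RT replicate 1, Idi1, Hmgcs1, Sqle, Msmo1 and Insig1 did not pass, nor did Msmo1 without RT replicate 2. Sqle and Insig1 did not pass without any 1 of the 4 RT and COLD libraries. In a fit of the RT and COLD libraries of all 3 lines with line as a term, Fdps was at -1.63 (adjusted p = 0.0549) and neither it nor Msmo1 passed. Srebf2 itself (-0.37, adjusted p = 0.36) did not pass.

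In the Adrb1 line, Fdps was 0 and 35.8 CPM at RT and in cold in WT, and 180 and 56.6 CPM in the libraries labelled KO, so WT, with 10 non-cycling cells at RT, went the other way. Of the 8 genes 5 (62.5%) were lower in cold in WT and 8 of 8 in KO, against 51.4% and 53.5% of all tested genes. The summed list was 946 and 714 CPM at RT, 398 and 401 CPM in cold and 497 and 281 CPM under CL in the C57 pools.

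Further genes fell in cold. Timd4, a receptor for phosphatidylserine on dying cells, had 64.2 and 44.6 CPM at RT against 10.8 and 4.56 CPM in cold (log2 fold change -3.03, SE 0.41, adjusted p = 0.0031), and did not pass without RT replicate 1. Fth1, the ferritin heavy chain that stores iron, had 1692 and 1598 CPM at RT, 390 and 499 CPM in cold and 744 and 1825 CPM under CL (log2 fold change -2.15, SE 0.41, adjusted p = 0.0148), and did not pass without either RT replicate or COLD replicate 1. Hk2, the first enzyme of glycolysis, fell by 2.11 on the log2 scale (SE 0.33, adjusted p = 0.0058), while Ldha (0.85) and Pgam1 (0.79) of the same list of 20 rose and 13 others of its 16 tested genes did not pass. Of all tested genes 3.45% fell and 2.93% rose. The chemokine Ccl17 was at 11.3 and 163 CPM at RT against 8.78 and 2.53 CPM in cold (adjusted p = 0.0237), so its call rested on RT replicate 2, and without it did not pass.

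In the C57 pools, transcripts of ribosomal proteins took 31.1% and 28.0% of the UMIs of non-cycling cDC1 at RT, 19.3% and 18.2% in cold and 21.0% and 24.4% under CL. Of 80 tested 45 fell in cold, with a median of -0.91, and of all tested genes 3.45% fell. Cd209a dendritic cells of these pools had 27.0% and 24.7% at RT against 16.2% and 15.9% in cold. The Adrb1 line, where kit and temperature cannot be told apart, went the other way. There cDC1 had 16.6% at RT and 19.7% in cold in WT, and 16.5% and 19.4% in the libraries labelled KO. Its Cd209a dendritic cells had 13.0% and 17.7% in WT, and 14.6% and 16.9% in the libraries labelled KO. This list was chosen after the values were seen. For 48.9% of all tested genes both cold pools lay above both RT pools, and for 14.7% below. Fold changes were taken after TMM scaling between libraries.

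**Figure D3:**
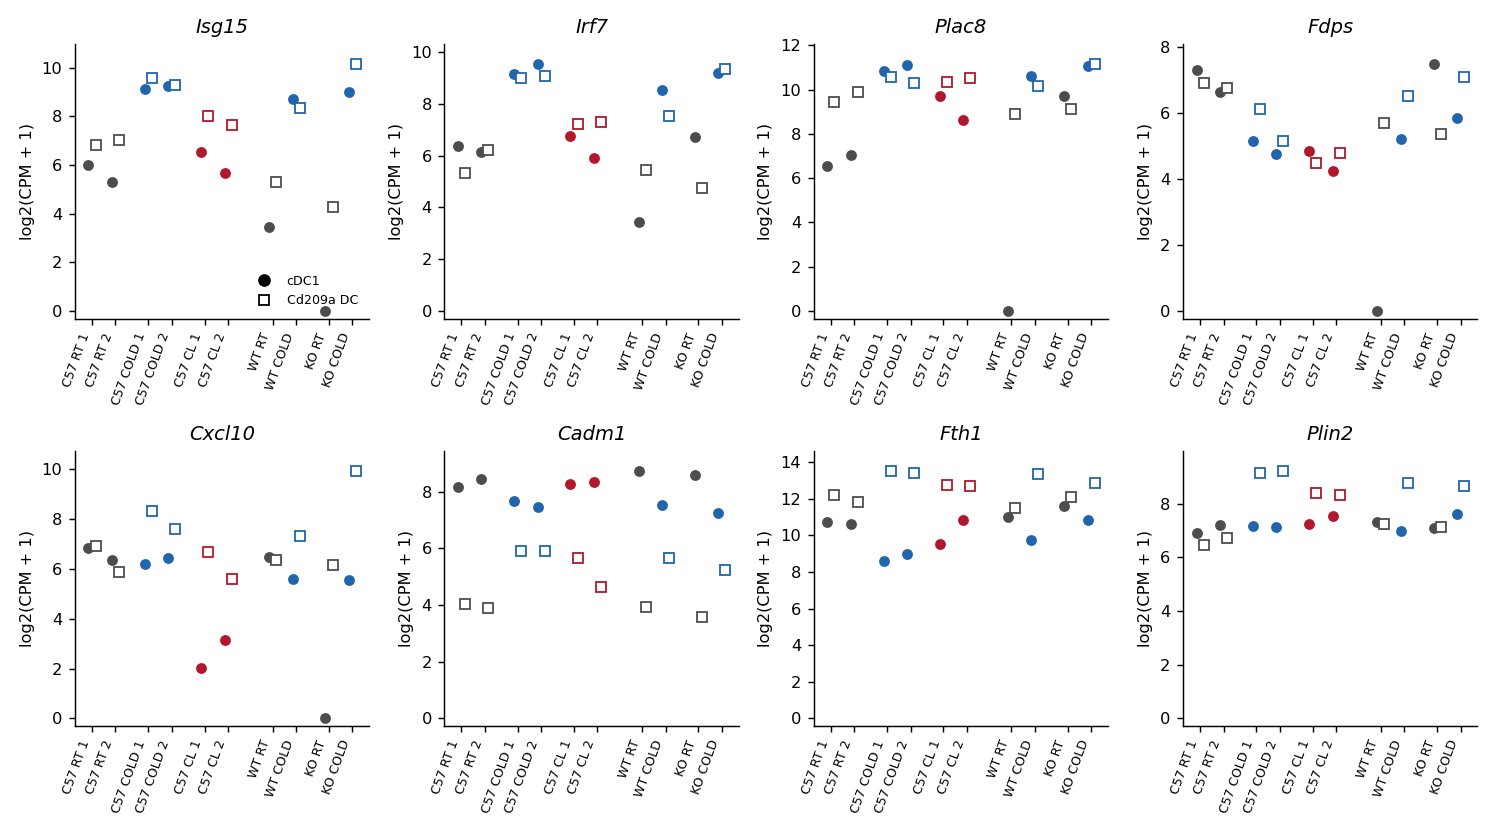
Levels of 8 genes as log2(CPM + 1) in each of the 10 Lin+ libraries (points; RT grey, COLD blue, CL red) in non-cycling cDC1 (filled circles) and Cd209a dendritic cells (open squares). Isg15, Irf7 and Plac8 were higher in cDC1 of the C57 cold pools than at RT, Fdps was lower, Cxcl10 was lowest under CL among the C57 pools, and Plin2 reached 571 and 594 CPM in Cd209a dendritic cells of the C57 cold pools against 144 and 140 CPM in cDC1.

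Of 22 identity genes of cDC1 outside the rule 20 could be tested, and 2 fell and none rose in cold, with 3.45% and 2.93% of all genes called in those directions and a list median of -0.01. Irf8 was 1300 and 1926 CPM at RT against 2536 and 2716 CPM in cold (log2 fold change 0.45, adjusted p = 0.25), and Batf3 was 213 and 230 CPM against 246 and 262 CPM (-0.06, adjusted p = 0.881). Both had cold pools above RT pools in CPM, and neither passed after scaling. Cadm1, an adhesion molecule of cDC1, fell from 289 and 350 CPM to 204 and 175 CPM (log2 fold change -1.01, SE 0.20, adjusted p = 0.0186), and did not pass without any 1 of the 4 RT and COLD libraries. Cadm1 was also lower in cold in the Adrb1 line, at 425 and 182 CPM in WT and 385 and 150 CPM in the libraries labelled KO. Cd36, the other called gene (-0.72, adjusted p = 0.0352), likewise did not pass without any 1 of those libraries.

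Of 19 genes of MHC class I presentation 2 rose (2.93% of all genes did), the chaperones Calr (0.94, adjusted p = 0.0341) and Pdia3 (0.90, adjusted p = 0.0409), and neither passed without any 1 of the 4 RT and COLD libraries. The median of the list was 0.26. In CPM, before scaling between libraries, both cold pools lay above both RT pools for 16 of the 19 (84.2%, against 48.9% of all genes), and the summed list was 1.59 times that at RT. Of 12 MHC class II genes none was called, with a median of 0.05, and in CPM 9 of the 12 lay above and the sum was 1.18 times that at RT. H2-Eb1 was 8953 and 10312 CPM at RT against 11766 and 11734 CPM in cold (log2 fold change 0.03). Of 12 tested genes of co-stimulation and maturation 2 fell (3.45% of all genes did), Nfkb1 (-1.08, adjusted p = 0.0266) and Tnfaip3 (-1.19, adjusted p = 0.0186), a subunit and an inhibitor of the NF-κB pathway, and neither passed without any 1 of the 4 libraries. Cd86 (0.04) and Cd83 (-0.27), which T cells read as activation signals, did not pass.

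Under CL, 6 of 5398 genes passed against RT (0.111%), 1 higher (0.0185%) and 5 lower (0.0926%), and 556 passed an unadjusted p of 0.05. Leaving out RT replicate 1 gave 0 genes, RT replicate 2 gave 10, CL replicate 1 gave 13 and CL replicate 2 gave 123. Plac8 was the gene that rose (log2 fold change 2.25, SE 0.32, adjusted p = 0.0243). Fdps (-2.71, SE 0.37, adjusted p = 0.0243) fell. A further gene that fell was the ribosomal pseudogene Rpl27-ps3 (-2.42), whose reads may belong to its parent gene and which is named here after its value was seen. Of Plac8, Fdps, Cxcl9 and Cxcl10, none passed without RT replicate 1 or with a marker sum of at least 3, and Plac8 also did not without RT replicate 2. The interferon list had no called gene and a median of 0.31, which was -0.17 with 1 gene called higher without CL replicate 1. Of the 12 sterol genes 2 fell, with a median of -1.49.

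The interferon-γ-induced chemokines Cxcl9 and Cxcl10, which draw T cells through Cxcr3, fell under CL. Cxcl9 had 319 and 201 CPM at RT, 109 and 136 CPM in cold and 61.8 and 43.6 CPM under CL. Its log2 fold change was -2.52 under CL (SE 0.31, adjusted p = 0.0118) and -1.36 in cold (SE 0.24, adjusted p = 0.0107), which did not pass without RT replicate 1 or COLD replicate 1, with a marker sum of at least 3 or in the fit of all 3 lines. Cxcl10 had 113 and 80.4 CPM at RT, 72.6 and 85.6 CPM in cold and 3.09 and 7.92 CPM under CL, where the log2 fold change was -4.15 (SE 0.47, adjusted p = 0.008). Under CL neither passed without RT replicate 1, with cycling cells included or with a marker sum of at least 3. In cold Cxcl10 did not pass (-0.57, adjusted p = 0.174), and its cold and RT pools overlapped.

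Both comparisons above share the RT pools, so cold and CL were also set against each other. Of 5398 genes 35 passed (0.648%), 32 higher (0.593%) and 3 lower (0.0556%) in cold, and 491 passed an unadjusted p of 0.05. With the replicate number as a block, 54 passed. The count without the block was 69 without CL replicate 1, 17 without COLD replicate 2, and 19 without RT replicate 1 or 2. Of the 26 interferon genes 15 were higher in cold, with a median of 1.99, and the calls ranged from 8 without COLD replicate 2 and 9 without CL replicate 2 to 14 without CL replicate 1. Isg15 (3.00, SE 0.28, adjusted p = 0.0014) and Irf7 (2.93, SE 0.27, adjusted p = 0.0014) were among them, as was Cxcl10 (3.58), which ranged from 1.19 to 5.75 over 14 alternatives and did not pass with cycling cells included. Of 12 sterol genes none passed, with a median of -0.05, so these genes were not shown to differ between the treatments. The 3 lower genes were Sparc (-3.64) and Mt2 (-4.04), named after their values were seen, and Pf4, the platelet chemokine (-3.33), at 13.2 and 7.60 CPM against 77.2 and 117 CPM under CL. Sparc is on the stromal marker list, which summed to 154 and 349 CPM under CL against 212 and 278 CPM in cold, and Pf4 on the macrophage list, which summed to 957 and 1904 CPM against 746 and 549 CPM. The part of these cells in the 2 results was not tested.

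The response to cold was then compared with that of Cd209a dendritic cells of the same libraries through the class-by-treatment term. It passed for 101 of 7999 genes (1.26%), with 37 responses higher (0.463%) and 64 lower (0.800%) in cDC1, and 787 passed an unadjusted p of 0.05. The count was 44 without RT replicate 2. Of the 30 interferon genes only Ifi27l2a passed. It was 962 and 1058 CPM at RT against 1947 and 2798 CPM in cold in Cd209a dendritic cells, so the response was larger in cDC1 by 2.23 on the log2 scale (SE 0.17, adjusted p = 1.07e-09). Plac8 gave 692 and 946 CPM at RT against 1529 and 1255 CPM in cold in Cd209a dendritic cells, a difference of 3.35 (SE 0.26, adjusted p = 1.04e-09).

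Of 20 sterol genes 3 had a more negative cold response in cDC1, and 0.800% of all genes did. The summed list in cold was 0.481 times that at RT in cDC1 and 0.543 times in Cd209a dendritic cells. Among the 3 were Sqle and Idi1, and neither of these passed without RT replicate 1 or 2 or under DESeq2. Idi1 passed under 5 of 11 alternatives.

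Of 22 lipid handling genes 6 had a lower and 1 a higher response in cDC1 and 15 did not pass. Over all genes 0.800% had a lower and 0.463% a higher response. The list median was -0.66, against 0.01 over all genes. Plin2, which coats lipid droplets, was 119 and 147 CPM at RT against 144 and 140 CPM in cold in cDC1, where the pools overlapped. In Cd209a dendritic cells it was 87.1 and 104 CPM at RT against 571 and 594 CPM in cold, and the difference of the responses was -2.56 (SE 0.22, adjusted p = 8.27e-09). The lysosomal protease Ctsb (-2.81), the fatty acid binding protein Fabp5 (-4.31), the lysosomal lipase Lipa (-1.86), Ctsd (-2.56) and the galectin Lgals3 (-1.14) were the other members with a lower response. Fabp5 did not pass without RT replicate 1, nor Ctsd or Lipa without RT replicate 2. Ctsb was 402 and 349 CPM at RT against 1336 and 1455 CPM in cold in Cd209a dendritic cells, and 77.4 and 118 CPM and 34.7 and 78.0 CPM in cDC1. The higher member was Apoe (3.19), which was at -0.19 with cells of high doublet score left out. Markers of macrophages moved in both directions in the Cd209a dendritic cells. Cd68 went from 188 and 232 CPM at RT to 615 and 570 CPM in cold and Fcgr1 from 26.7 and 18.7 CPM to 241 and 203 CPM, while Mrc1 went from 166 and 119 CPM to 60.1 and 50.7 CPM. C1qc was 21.1 and 11.8 CPM against 11.0 and 13.4 CPM, and the 10 macrophage markers summed to 7689 and 10872 CPM against 8478 and 7713 CPM. Gpnmb and Trem2, on the lipid list and known from lipid-laden macrophages, went from 0 and 0.983 CPM to 100.1 and 146 CPM and from 19.7 and 6.88 CPM to 83.4 and 92.3 CPM. The part of macrophages in these differences was not tested.

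Fth1 fell in cDC1 in cold while Cd209a dendritic cells had 4731 and 3663 CPM at RT against 11713 and 11001 CPM in cold, a difference of -3.40 (SE 0.21, adjusted p = 2.02e-11), the smallest adjusted p of this comparison. Cadm1 went from 15.5 and 13.8 CPM to 59.2 and 58.8 CPM in Cd209a dendritic cells, a difference of -2.85 (SE 0.31, adjusted p = 5.86e-07). Batf3 (1.27, adjusted p = 0.00033) and Id2 (0.92, adjusted p = 0.0034), factors of cDC1 development, had a higher response in cDC1, and Id2 did not pass without RT replicate 2 or COLD replicate 2. In cDC1 alone neither was called between cold and RT, so this difference of responses does not show a rise in cDC1. In cDC1, Batf3 was 213 and 230 CPM at RT against 246 and 262 CPM in cold, and Id2 910 and 1060 CPM against 1153 and 1546 CPM. The neutrophil genes S100a8 (7.85) and S100a9 (7.88) and the macrophage gene Retnla (3.11) passed as well. S100a8 was at or below 3.78 CPM in cDC1 of the C57 RT pools and of COLD 1 and at 82.6 CPM in COLD 2, where neutrophil genes stood apart. In Cd209a dendritic cells it was 989 and 534 CPM at RT against 25.2 and 81.3 CPM in cold. Without COLD replicate 2 the differences were 5.71 for S100a8 (adjusted p = 3.87e-06) and 5.60 for S100a9 (adjusted p = 0.00016). Retnla, at or below 8.93 CPM in cDC1 against 1636 and 3432 CPM in Cd209a dendritic cells at RT and 97.3 and 64.1 CPM in cold, did not pass without either RT replicate or COLD replicate 1.

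The CL responses of both classes differed for 16 genes (0.200%), 7 higher (0.0875%) and 9 lower (0.113%) in cDC1, and 526 passed an unadjusted p of 0.05. Leaving out CL replicate 1 gave 1 gene, CL replicate 2 gave 44, COLD replicate 1 gave 25 and COLD replicate 2 gave 33. Ly6e, a membrane protein that hinders virus entry, was 455 and 426 CPM at RT and 327 and 315 CPM under CL in cDC1, and 284 and 407 CPM against 808 and 679 CPM in Cd209a dendritic cells. The difference of -1.60 (SE 0.19, adjusted p = 3.55e-05) passed under all 11 alternatives. Cxcl10 (-3.68), Spp1 (-3.36) and Plin2 (-1.47) also had lower CL responses in cDC1, and Plac8 (1.56) a higher one, and none of these 4 passed without CL replicate 1.

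Levels between the classes are a description, since the cells of both were chosen by their own counts. Over 8 libraries with 20 or more cells of each class, 3866 of 8412 genes were past the threshold (46.0%), 1840 higher (21.9%) and 2026 lower (24.1%) in cDC1. Of the 20 tested identity genes 19 were higher, with a median log2 difference of 2.90. The largest among named genes were Gcsam (6.39), a gene of germinal centre B cells, and the integrin Itgae or CD103 (6.24), at 30.2 to 117 CPM in cDC1 and 0 to 1.83 CPM in Cd209a dendritic cells of those libraries. Irf8 was higher by 4.38, the chemokine receptor Cxcr3 by 4.27, the cross-presentation gene Wdfy4 by 3.03 and the interleukin 12 subunit Il12b by 5.55. Il12b was low in cDC1 too, at 0 to 35.7 CPM in those libraries.

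Of 19 genes of MHC class I presentation 10 were higher and 5 lower in cDC1, with a median of 0.25. Of all genes 21.9% were higher and 24.1% lower. The peptide transporters Tap1 and Tap2 were higher in cDC1 by 1.25 and 1.67 and the immunoproteasome subunit Psmb9 by 2.02, while its partner Psmb10 (-0.06) did not pass, and the class I heavy chains H2-K1 (-0.86) and H2-D1 (-0.70) and B2m (-0.58) were lower. The NADPH oxidase subunit Cybb was lower by 4.25. Of 30 interferon genes 22 were past the threshold and lower in cDC1 and 2 higher, with a median of -0.80. Of 22 lipid handling genes 16 were lower and 2 higher, with a median of -1.41. The lectins Mgl2 (-6.09) and Cd209d (-6.06) and the chemokine Ccl9 (-5.64) were among the genes furthest below.

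Cycling cDC1 were set beside the non-cycling cells of the same libraries, again as a description, since cell cycle counts split them. In 7 libraries with 20 or more cells of each, 2179 of 6364 genes were past the threshold (34.2%), 1041 higher (16.4%) and 1138 lower (17.9%). All 25 DNA synthesis genes were higher, with a median of 1.44, and all 24 mitosis genes outside the splitting list, with a median of 3.40. Pclaf, a clamp-associated factor of DNA replication, was at 616 to 785 CPM in the cycling cDC1 of the C57 pools and 6.70 to 21.6 CPM in the others. Of the 1852 cDC1 with 1500 UMIs, 274 had at least 3 UMIs of both the splitting list and the DNA synthesis list after thinning, 274 of the first alone and 240 of the second alone.

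Many identity, MHC class II and interferon genes were lower in cycling than in non-cycling cDC1 after scaling. Cycling cDC1 were deeper, with median UMIs of 6934.5 to 11575.2 in the C57 pools against 4766.5 to 8909.1 in non-cycling cDC1. The differences are thus in the part of the UMIs that a gene takes, and UMIs per cell were not compared. Of 20 identity genes 10 were past the threshold and lower and none higher, with a median of -0.22 (all genes -0.04), while Irf8 (-0.07) and Batf3 (0.06) were close to 0. All 12 MHC class II genes had negative differences, 10 of them past the threshold, with a median of -0.43. H2-Eb1 was 8953 to 11948 CPM in the non-cycling and 6240 to 8903 CPM in the cycling cDC1 of the C57 pools (log2 difference -0.55, SE 0.05), so the groups did not overlap. The 26 interferon genes all had negative differences, 21 of them past the threshold, with a median of -0.65, and Ccl5, a T cell attractant, was lower by 1.74. In CPM the summed interferon list did not keep to that direction in each pool, with 1534 CPM in cycling against 1046 CPM in non-cycling cDC1 in RT 1 and 2168 against 1300 CPM in CL 2, and lower sums in cycling cells in the other 4 C57 pools. Of 19 class I genes 9 were past the threshold and lower, and their sum was higher in cycling cells in both RT pools, at 8765 against 8660 CPM and 10086 against 9332 CPM.

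**Figure D4:**
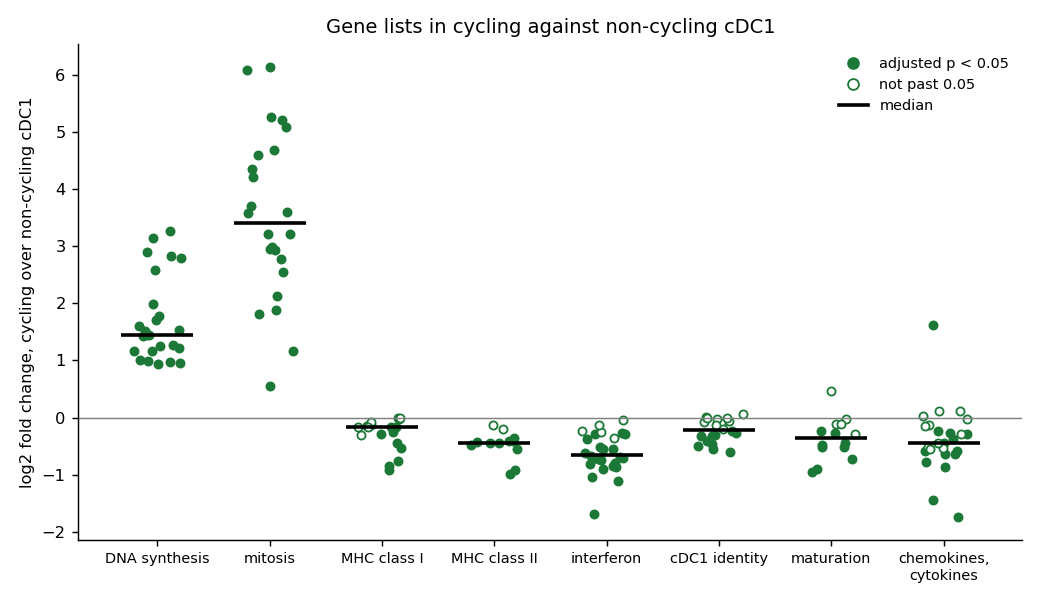
Log2 differences of cycling over non-cycling cDC1 in 7 libraries for each gene (points) of 8 lists, with the median of each list as a bar. Mitosis and DNA synthesis genes lie above 0 with medians of 3.40 and 1.44, and MHC class II and interferon genes lie below 0 with medians of -0.43 and -0.65.

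In the Adrb1 line, KO and WT were set side by side with 1 library at each temperature. Of 1091 genes with at least 100 CPM in the higher library, 3 (0.275%) were at least 2-fold higher in the libraries labelled KO at both temperatures and none (0.00%) at least 2-fold lower. They were Rsrp1, a splicing-related gene, at 178 and 445 CPM in WT and KO at RT and 80.3 and 177 CPM in cold, and the mitochondrial genes mt-Nd2 and mt-Nd4. An edgeR test over the 4 libraries with temperature as a term, added after the values were seen, has 1 residual degree of freedom. It found 18 of 4435 genes higher in KO (0.406%) and none lower, and 162 passed an unadjusted p of 0.05. The 18 included 7 mitochondrial genes, such as mt-Nd2 (2.08, adjusted p = 7.08e-06), the plasmacytoid markers Bst2 and Tcf4, the T cell genes Trbc1 (2.60) and Trbc2 (2.49), and Ly6c2 (2.68) and Plac8 (1.56, adjusted p = 1.25e-06) of the monocyte list. The part of these other cells in the calls was not tested. Tcf4 was at 676 CPM in the library labelled KO RT, where plasmacytoid markers stood apart, and at 43.8 CPM in KO COLD against 38.5 CPM in WT COLD. Plac8 had 0 of 101184 UMIs in WT RT and 98 of 116835 in KO RT. In cold it had 2386 of 1507472 UMIs in WT and 1180 of 547643 in KO. Of the 158 genes that rose in C57 cold, 135 (85.4%) were higher in cold in WT and 128 (81.0%) in KO, against 48.5% and 46.5% of all tested genes. Of the 186 that fell, 111 (59.7%) and 103 (55.4%) were lower, close to the 51.4% and 53.5% of all tested genes. The RT libraries behind these shares held 10 and 12 non-cycling cDC1.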

How the data were processed

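Single-cell libraries (10x Genomics) were aligned to mm10 with Cell Ranger 3.0.1 per the labels' processing notes, and per the study's methods free RNA was removed with SoupX. The deposited values are expected counts (UMI counts corrected by the authors, mostly not whole), over 31053 genes. They were summed per library and class and rounded to whole numbers. Cells were chosen by the limits in the text, with no further doublet removal in the main analysis; leaving out the top 6% of Scrublet scores was an alternative. Genes passing filterByExpr were tested with edgeR 4.0.16 (TMM, quasi-likelihood, R 4.3.3), fitting all C57 RT, COLD and CL pools together, with adjusted p under 0.05 (Benjamini-Hochberg) as the threshold. The classes were compared with class and library terms, in libraries with at least 20 cells of each class. DESeq2 1.42.0 and, for cold, a fit of the RT and COLD libraries of all 3 lines with line as a term were alternatives. Shares were compared with two-sided exact permutation tests (scipy 1.17.1) over libraries. The scripts were tested on simulated data. Named genes were past the threshold with groups that did not overlap, at least 50 CPM in the higher group and outside the lists that choose cells, with the 10 largest rises and falls, beside members of the lists. The members and lists were chosen with earlier results of these data known. Depth per library is given in the text, and smaller libraries give wider intervals. Replicates of each C57 group differed beyond counting noise (chi-square per degree of freedom 4.24 to 5.50). Per the study's methods, libraries were merged by replicate experiment, so a shared replicate number was tried as a block. Deviations of same-numbered pools correlated at 0.202 (RT and COLD), -0.049 (RT and CL) and 0.031 (COLD and CL) over 5398 genes. Some genes counted in the lists are not reported here by name.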

Additional observations from a re-analysis of the deposited data

Results flagged for a closer look

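The cold response differed between cDC1 and Cd209a dendritic cells, by the class-by-treatment term, for 101 genes, and the CL response for 16 genes. In the Lin- libraries, used above for Adrb1 alone, 186 cells met the cDC1 rule. Per experiment these were 1.78% to 27.8% of all cells that met it, a larger percentage than for Cd209a dendritic cells in 10 of 10 experiments (mean difference 12.1 percentage points, SD 8.45; two-sided exact sign-flip permutation p = 0.00195, the smallest possible). The percentage was larger in every RT experiment than in every cold one. At RT, Lin- held 16 and 15 such cells in C57, 5 in WT and 5 in KO, beside 91, 72, 17 and 13 in Lin+. In cold it held 53, 64, 6 and 2, beside 562, 492, 332 and 79. With Lin+ and Lin- cells together, the C57 cold share was 4.01 times that at RT. A further 143 cells in the Lin+ libraries met the marker rule but lay above the upper limits on UMIs or genes, 127 of them cycling. For the cDC1 share of Lin+ cells, the cycling share and the cDC1 share of both dendritic classes, over 4 RT and 4 COLD experiments each, no library was an outlier of its group of 4 by Dixon's test, and chance gives about 1 in 20 groups. Other measures were not searched in this way.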

How the results depend on the processing

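Over 4 experiments the cold difference in the cDC1 share was 2.21 percentage points with Lin+ and Lin- cells together, 4.15 without barcodes shared with the Lin- library, 3.48 with no lower limit on genes, 2.16 for non-cycling cDC1 and 4.89 with values rounded first (exact permutation p = 0.0571 for each), and 1.23 after thinning (p = 0.143). With libraries exchanged within lines, added after seeing the data, the difference of 4.17 had an exact permutation p of 0.0556, the smallest possible. Leaving out a pair gave 3.42 to 5.00 (exact permutation p = 0.1, the smallest possible). The CL difference ranged from -0.430 to 0.195 with a library left out. Among both dendritic classes the cold difference was 12.9 with no upper limits (exact permutation p = 0.0286), and the CL difference ranged from -5.03 to 3.11. The limits on genes and the shared barcodes were alternatives chosen after seeing the data.

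Counts of genes past the threshold changed with the tool and the filter. DESeq2 gave 192 in cold, 14 under CL, 32 and 1 for the cold and CL class differences, and 1417 for cycling. With no filter the counts were 679 (cold), 125 (CL), 179 (cold against CL) and 44 (CL class difference). With a marker sum of at least 3 they were 1 (CL) and 21 (cold against CL). Leaving out a library gave 14 to 536 (cold), 0 to 123 (CL), 17 to 69 (cold against CL), 44 to 124 (cold class difference) and 1 to 44 (CL class difference). Apoe reversed to -0.19 in the cold class difference without top Scrublet scores. The cause was not tested.

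A replicate block gave 445 genes in cold, 7 under CL and 54 in cold against CL. It changed no other call of a named result that was computed with it.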
